A study of Homo sapiens with 9 samples.

Results

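Transcripts of 2 chemokine receptors (CXCR4 and ACKR3), 6 chemokines (CXCL1, CXCL2, CXCL3, CXCL8, CXCL16 and CCL2) and 2 cytokines of the IL-6 family (IL6 and LIF) were compared across 3 kidney cell lines. They are 10 of the 28395 genes in the count table and were picked by name, with earlier results of these data known. HK2 cells are immortalised epithelial cells from normal kidney proximal tubule, 786-O cells come from a primary clear cell renal cell carcinoma (ccRCC), and 786-M1A cells are a metastatic derivative of 786-O, obtained from lung metastases in mice. No agent was given in this experiment, and all of the lines grew in Plasmax, a medium made to resemble the nutrients of human plasma. RNA was sequenced from 3 libraries per line, 9 in all. They are replicate dishes, so that the p-values measure the spread between dishes. Each state of disease is represented by a single line, so that a difference between lines cannot be told apart from a difference between states.

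Chemokines are small secreted proteins that guide migrating cells through receptors of the G protein-coupled family. CXCL8 and the closely related CXCL1, CXCL2 and CXCL3 attract neutrophils and promote vessel growth through CXCR2, and CCL2 attracts monocytes through CCR2. CXCL12 acts through CXCR4, a receptor that is known as a hypoxia-inducible gene and is often studied in kidney cancer metastasis. ACKR3 binds CXCL12 as well, but takes it up and recruits arrestin instead of signalling through G proteins. IL6 and LIF act on receptors that share the subunit IL6ST, and IL6, CXCL8 and its relatives are well-known targets of the transcription factor NF-kB.

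The sequences just upstream of transcription are shown because several of these genes carry the same letters at nearly the same place. RefSeq promoters on GRCh38.p14 were matched for 6 of the 10 genes. The letters GGANTTTCC, a form of the NF-kB motif, occur in 5 of them and in 0.94% of all 35116 promoter windows of this length on either strand. The capitals mark GGANTTTCC, the AP-1 letters TGACTCA (2.89% of windows), the TATA box TATAAAA (2.46%) and the related CATAAAA (1.89%), on either strand. None of the motif letters overlaps another motif, although TATAAAA overlaps its own reverse complement in CXCR4. Each line gives the 150 bases before a transcription start, 5′ to 3′ on the strand of the gene, and of the 3 starts listed for CXCR4 the most upstream is shown.

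CXCL8 (chr4:73740419-73740568, plus strand): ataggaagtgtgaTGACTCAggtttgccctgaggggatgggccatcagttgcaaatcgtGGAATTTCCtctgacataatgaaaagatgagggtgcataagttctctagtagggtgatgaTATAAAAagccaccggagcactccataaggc

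CXCL1 (chr4:73869243-73869392, plus strand): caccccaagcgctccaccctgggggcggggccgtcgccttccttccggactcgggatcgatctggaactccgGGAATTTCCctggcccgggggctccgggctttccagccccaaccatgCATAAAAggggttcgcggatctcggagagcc

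CXCL3 (chr4:74038690-74038839, minus strand): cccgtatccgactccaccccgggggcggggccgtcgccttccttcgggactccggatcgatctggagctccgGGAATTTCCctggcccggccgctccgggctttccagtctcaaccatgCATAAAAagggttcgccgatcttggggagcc

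CXCL2 (chr4:74099196-74099345, minus strand): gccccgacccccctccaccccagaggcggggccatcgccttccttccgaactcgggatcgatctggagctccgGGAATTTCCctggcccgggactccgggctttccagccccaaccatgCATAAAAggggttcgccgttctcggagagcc

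IL6 (chr7:22727050-22727199, plus strand): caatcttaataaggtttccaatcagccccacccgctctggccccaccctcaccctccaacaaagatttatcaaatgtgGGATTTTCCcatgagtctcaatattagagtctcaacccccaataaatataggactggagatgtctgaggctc

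CXCR4 (chr2:136118150-136118299, minus strand): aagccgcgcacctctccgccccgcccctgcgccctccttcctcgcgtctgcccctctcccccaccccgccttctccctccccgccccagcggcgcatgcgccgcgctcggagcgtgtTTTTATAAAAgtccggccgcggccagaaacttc

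The NF-kB letters begin 91 bases before the start of CXCL8, 78 bases before CXCL1 and CXCL3, 77 bases before CXCL2 and 72 bases before IL6. In CXCL1, CXCL2 and CXCL3 the CATAAAA box lies at the same distance, 31 bases before the start, which is also where TATAAAA begins in CXCL8. The AP-1 letters were found in CXCL8 alone among these windows, 137 bases before its start. These are matches of letters and were chosen after the sequences had been seen.

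The libraries held between 30212291 and 45362428 counts. Levels are given as CPM, the counts per 1000000 of the TMM-normalised total of a library, and 3 counts correspond to between 0.0647 and 0.0964 CPM. Differences were tested with edgeR over the 12695 genes whose mean reached 50 counts, and a call is an adjusted p under 0.05. CXCL1 (mean 47.4 counts) and CXCL3 (mean 36.7 counts) missed this filter and were taken from the same fit without a filter. The smallest two-sided p of an exact permutation test on 3 and 3 libraries is 0.1, and this value was found for every gene and pair of lines whose libraries did not overlap. Of 10 leukocyte markers, PTPRC, CD3E, MS4A1 and TYROBP were among the 5 at 0 in all libraries. CD68, which is not limited to leukocytes, was the only marker of that list to pass the filter, with 50.9 CPM in HK2, against 27.0 in 786-O and 36.0 in 786-M1A, and CD14 and ITGAM reached 21 and 19 counts. Of 11 proximal tubule markers, LRP2 and SLC22A6 were likewise at 0 in every line, HK2 included, and only PAX8, GGT1 and ANPEP passed the filter. ANPEP was at 1.74 CPM in HK2, against 112 in 786-O and 19.8 in 786-M1A. The ccRCC marker CA9 reached no more than 3 counts in any library. VIM, CD70 and VEGFA, also ccRCC markers, were higher in both cancer lines than in HK2. ANGPTL4, another of them, was not called in either (edgeR adjusted p = 0.173 in 786-O and 0.0967 in 786-M1A). PAX8, listed there too, was called only in 786-M1A (log2 fold change 0.12).

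**Figure D1:**
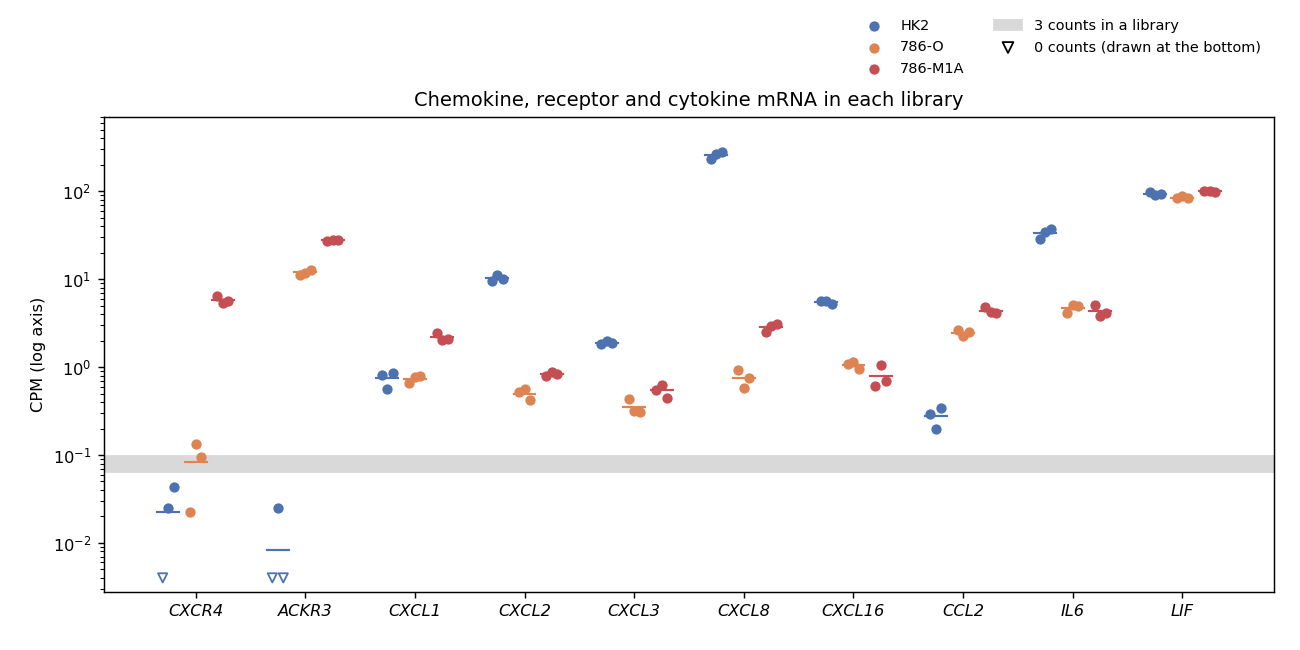
CPM of the 10 genes in each library, on a log axis, with 3 points per line and a short bar at their mean. Open triangles are libraries with 0 counts and the grey band is the level of 3 counts. CXCR4 stands out in 786-M1A, ACKR3 is near 0 in HK2, CXCL8 lies between 231 and 278 CPM in HK2, and LIF lies between 82.8 and 102 CPM throughout.

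CXCR4 mRNA (NCBI gene 7852, chromosome 2, 136114349 to 136118149, minus strand) was clearly detected in the metastatic line alone among these 3 lines. HK2 libraries had 0, 1 and 2 counts and 786-O libraries 1, 5 and 4, against 232, 204 and 215 in 786-M1A. In CPM these are 0, 0.0248 and 0.0432 in HK2, 0.0225, 0.133 and 0.0944 in 786-O, and 6.41, 5.31 and 5.68 in 786-M1A. Every 786-M1A library lay far above all the others, while HK2 and 786-O overlapped near the level of 3 counts. In bulk libraries, fewer cells with the transcript and less of it per cell cannot be told apart.

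Summed over libraries and scaled for depth, 786-M1A had 72.1 times the CXCR4 counts of 786-O (exact 95% interval 38.9 to 151, counting error only). The log2 fold change was 6.12 (SE 0.24, n = 3 per line, edgeR adjusted p = 4.91e-15). Against HK2, with 651 summed counts against 3, the ratio was 227 (77.5 to 1105) and the log2 fold change 7.66 (SE 0.30, edgeR adjusted p = 3.30e-16), or 8.39 without HK2 replicate 3, which held 2 of those 3 counts. Between 786-O and HK2 the ratio of 10 to 3 counts was 3.16 (0.812 to 17.8). That difference was not called (log2 fold change 1.54, SE 0.86, edgeR adjusted p = 0.101), but it was called without 786-O replicate 1 (2.01, adjusted p = 0.0306) and by limma on log2 counts (1.39, adjusted p = 0.0331). CXCR4 passed the filter on low counts only through 786-M1A, the line in which it is high.

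ACKR3 (NCBI gene 57007, chromosome 2, 236537122 to 236582354, plus strand), the atypical receptor for the same ligand, was already high in the primary cancer line and higher again in its derivative. HK2 libraries had 0, 1 and 0 counts, that is 0, 0.0248 and 0 CPM. The level was 11.3, 11.7 and 12.8 CPM in 786-O and 27.3, 27.8 and 28.1 CPM in 786-M1A, and no library of any line overlapped another line. From 786-O to 786-M1A it rose 2.33-fold (log2 fold change 1.22, SE 0.06, edgeR adjusted p = 5.28e-13). Against the single HK2 count, the 1483 counts of 786-O gave a ratio of 1404 (252 to 55482) and the 3120 counts of 786-M1A a ratio of 3269 (586 to 129157). Both differences were called (edgeR adjusted p = 6.49e-20 and 2.82e-22), and the fitted log2 fold change of 786-M1A was 11.22 (SE 0.20). Without HK2 replicate 2, which held that count, HK2 is at 0 and the fit gives 13.09, a value that depends on the prior count.

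The ligand shared by the 2 receptors was barely detected. CXCL12 had 0 counts in all HK2 libraries, 4 to 7 in 786-O and 1 to 2 in 786-M1A, and was not tested. None of the 21 other chemokine receptors passed the filter, and 7 of them were at 0 in every library. Among the receptors for the chemokines described here, CXCR1 and CCR2 were at 0 throughout, CXCR2 never exceeded 1 count, and CXCR6, the receptor for CXCL16, had 1 to 6 counts. CXCR4 and ACKR3 were therefore the only chemokine receptors among the 23 examined whose transcripts passed the filter.

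Of 10 endothelial and fibroblast markers, 4 passed the filter, and 1 was called higher and 3 lower in 786-M1A than in 786-O. Among all genes tested, 27.9% were called higher and 28.0% lower. PDGFRB, a receptor of pericytes and fibroblasts, was at 4.98 CPM in HK2, against 2.59 in 786-O and 282 in 786-M1A (log2 fold change against 786-O 6.75, edgeR adjusted p = 1.11e-24). KDR, an endothelial receptor, was at a low level and did not pass the filter. It was also highest in 786-M1A, with 0 to 1 counts in HK2, 3 to 11 in 786-O and 33 to 40 in 786-M1A. COL1A1, a fibrillar collagen, was highest in 786-O (291 CPM) and lowest in 786-M1A (16.5 CPM). COL3A1 and LUM were also lower in 786-M1A than in 786-O (log2 fold change -8.23, edgeR adjusted p = 3.53e-14, and -1.42, adjusted p = 1.15e-12). COL3A1 had 24 to 40 counts in HK2, 141 to 164 in 786-O and 0 to 1 in 786-M1A. It passed the filter only through 786-O, and the size of its fold change rests on those 0 to 1 counts. PECAM1 and CDH5, which define endothelial cells, were at 0 in all 786-M1A libraries. The summed level of the 10 endothelial and fibroblast markers was 77.8 to 87.1 CPM in HK2, 282 to 351 in 786-O and 303 to 307 in 786-M1A. Their part in the CXCR4 difference was not tested.

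CXCL8 (NCBI gene 3576, chromosome 4, 73740569 to 73743716, plus strand), the neutrophil chemokine also called IL-8, had the largest difference among the 6 chemokines chosen. Its level was 231, 267 and 278 CPM in HK2, 0.924, 0.584 and 0.755 CPM in 786-O and 2.49, 2.94 and 3.09 CPM in 786-M1A. The lines did not overlap, and 786-M1A lay between the other lines but close to 786-O. CXCL8 was 338-fold lower in 786-O than in HK2 (log2 fold change -8.40, SE 0.11, edgeR adjusted p = 9.06e-19) and 91.0-fold lower in 786-M1A (-6.51, SE 0.09, adjusted p = 2.17e-18). From 786-O to 786-M1A it rose 3.72-fold (1.89, SE 0.21, edgeR adjusted p = 1.35e-06).

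CXCL2 (NCBI gene 2920, chromosome 4, 74097040 to 74099195, minus strand) followed the same order at a lower level. It measured 9.51, 11.3 and 9.95 CPM in HK2, 0.518, 0.557 and 0.425 CPM in 786-O and 0.801, 0.886 and 0.845 CPM in 786-M1A. All 3 lines were separate. CXCL2 was 20.5-fold lower in 786-O than in HK2 (log2 fold change -4.36, SE 0.13, edgeR adjusted p = 5.56e-18) and 12.1-fold lower in 786-M1A (-3.60, SE 0.12, adjusted p = 3.58e-17). It was 1.69-fold higher in 786-M1A than in 786-O (0.76, SE 0.22, edgeR adjusted p = 0.00665).

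CXCL3 (NCBI gene 2921, chromosome 4, 74036589 to 74038689, minus strand), which acts on the same receptor, measured 1.83, 1.98 and 1.90 CPM in HK2, 0.428, 0.318 and 0.307 CPM in 786-O and 0.553, 0.625 and 0.449 CPM in 786-M1A. HK2 was above both cancer lines, and the lowest 786-M1A library was just above the highest of 786-O. In the edgeR fit without a filter it was 5.29-fold lower in 786-O than in HK2 (log2 fold change -2.40, SE 0.23, adjusted p = 2.25e-25) and 3.44-fold lower in 786-M1A (-1.78, SE 0.21, adjusted p = 1.75e-16). The difference between the cancer lines was not called (0.62, SE 0.30, edgeR adjusted p = 0.0976), except by limma on log2 counts (0.80, adjusted p = 0.0142).

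CXCL1 (NCBI gene 2919, chromosome 4, 73869393 to 73871308, plus strand) did not share the HK2 excess of its relatives. It measured 0.803, 0.57 and 0.863 CPM in HK2, 0.653, 0.769 and 0.802 CPM in 786-O and 2.46, 2.06 and 2.09 CPM in 786-M1A. HK2 and 786-O overlapped and 786-M1A lay above both. In the edgeR fit without a filter CXCL1 was 2.99-fold higher in 786-M1A than in HK2 (log2 fold change 1.58, SE 0.19, adjusted p = 2.44e-16) and 2.98-fold higher than in 786-O (1.57, SE 0.19, adjusted p = 5.65e-16). Between 786-O and HK2 the log2 fold change was 0.01 (SE 0.23, edgeR adjusted p = 1), and its sign changed under other scalings.

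These 4 genes lie in a cluster of 9 CXC chemokine genes on chromosome 4 that spans 359 kb, and neighbours in it had opposite patterns. CXCL5, another ligand of CXCR2, starts between CXCL1 and CXCL3 and went the other way from CXCL8. It was at 10.3 ± 0.461 CPM in HK2, against 25.7 ± 0.876 in 786-O and 47.7 ± 2.31 in 786-M1A (SD, n = 3). The difference from HK2 was 1.31 on the log2 scale in 786-O (edgeR adjusted p = 6.32e-15) and 2.21 in 786-M1A (adjusted p = 2.40e-19), and 786-M1A exceeded 786-O by 0.90 (adjusted p = 2.17e-12). The remaining genes of the cluster were silent or nearly so. CXCL6 had at most 3 counts in a library, PF4V1 and PF4 at most 1, and PPBP was at 0 in every library.

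**Figure D2:**
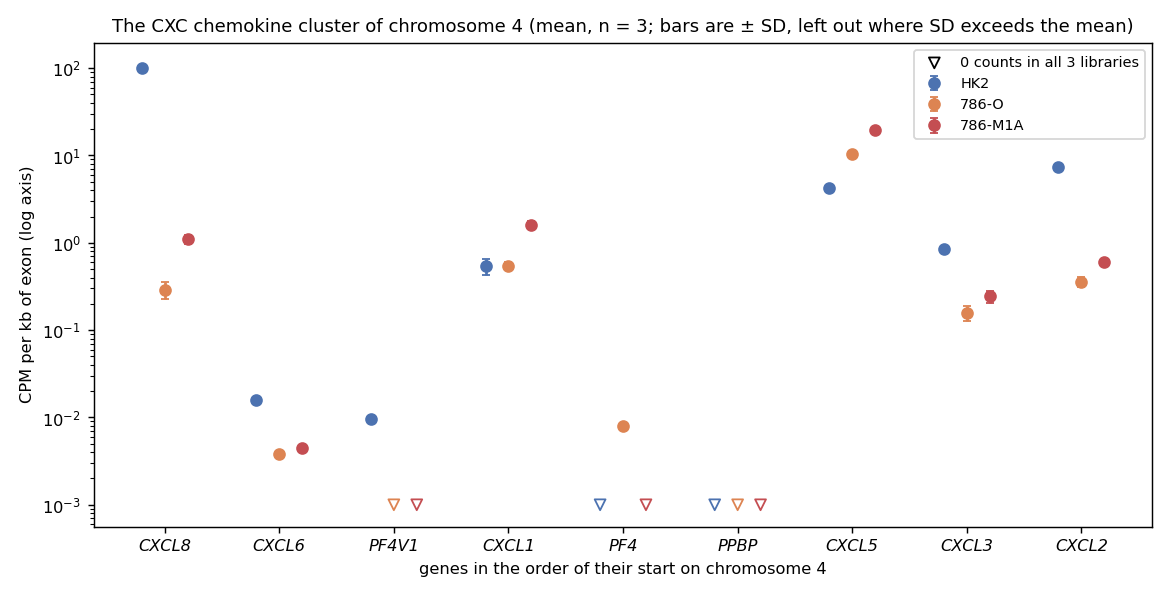
Mean level of the 9 CXC chemokine genes of the chromosome 4 cluster, in CPM per kb of exon on a log axis, with genes in the order of their start. Points are means of 3 libraries per line, bars are the SD where it is below the mean, and open triangles are genes with 0 counts in all 3 libraries. CXCL8, CXCL3 and CXCL2 are highest in HK2, whereas CXCL1 and CXCL5 are highest in 786-M1A.

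Set per length, the mixture of CXCL1, CXCL2 and CXCL3 differed between the lines. CXCL2 made up 82.7% to 86% of the CPM per kb of these 3 genes in the HK2 libraries, 29.5% to 36% in 786-O and 21.8% to 26.1% in 786-M1A. CXCL1 made up 4.46% to 7.36% in HK2, 46% to 57.1% in 786-O and 62.3% to 68.7% in 786-M1A. The leading transcript was thus CXCL2 in every HK2 library and CXCL1 in every library of the cancer lines. CXCL2 and CXCL3 have some sequence in common. Of all 75-base stretches of the CXCL2 transcripts, 7.56% also occur in another gene, mostly in CXCL3, and for CXCL3 the share is 4.57%, so that reads from these stretches may be assigned to either gene or to none. For CXCL1 the share was 0.233%, and for CXCL8, CCL2, CXCR4 and ACKR3 it was 0.

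CXCL16 (NCBI gene 58191, chromosome 17, 4733533 to 4739928, minus strand), a membrane-bound chemokine that is also shed by ADAM10 and ADAM17, was lower in both cancer lines. It measured 5.62, 5.60 and 5.18 CPM in HK2, 1.08, 1.14 and 0.944 CPM in 786-O and 0.608, 1.07 and 0.687 CPM in 786-M1A. HK2 stood apart and the cancer lines overlapped. CXCL16 was 5.17-fold lower in 786-O than in HK2 (log2 fold change -2.37, SE 0.14, edgeR adjusted p = 5.36e-13) and 6.87-fold lower in 786-M1A (-2.78, SE 0.15, adjusted p = 1.27e-13). The difference between 786-M1A and 786-O was not called (-0.41, SE 0.21, edgeR adjusted p = 0.0977), but it was called without 786-M1A replicate 2 (-0.70, adjusted p = 0.0120) and by limma on log2 counts (-0.47, adjusted p = 0.0461).

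Sheddases and other partners of CXCL12 and CXCL16 were measured as a list of 5 genes, of which 4 were tested. In each cancer line 1 was called higher and 3 lower than in HK2, and in 786-M1A 0 were higher and 3 lower than in 786-O. The shares of all genes tested were 41.6% higher and 42.6% lower in 786-O and 41.6% and 43.3% in 786-M1A against HK2, and 27.9% and 28.0% between the cancer lines. ADAM10 was higher in 786-O than in HK2 (log2 fold change 0.64, edgeR adjusted p = 2.24e-13), and ADAM17 was lower (-0.36, adjusted p = 1.92e-07). CD74, the receptor subunit for MIF that associates with CXCR4, had the largest difference of the list and was at 128 CPM in HK2, against 24.6 in 786-O and 7.86 in 786-M1A. It was lower by 2.37 on the log2 scale in 786-O (log2 fold change -2.37, edgeR adjusted p = 1.38e-21) and by more in 786-M1A (-4.02, adjusted p = 2.54e-24). MIF itself is listed at 0 in every library. It is usually an abundant transcript, and whether the 0 comes from the counting was not tested. The antisense neighbour MED11, whose span reaches into an exon of CXCL16, had 166 to 387 counts per library, and without the strand setting of the counting the reads of the overlap cannot be told apart.

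CCL2 (NCBI gene 6347, chromosome 17, 34255285 to 34257203, plus strand), the monocyte chemokine also called MCP-1, was higher in both cancer lines than in HK2 and highest in the metastatic line. It measured 0.289, 0.198 and 0.345 CPM in HK2, 2.66, 2.23 and 2.48 CPM in 786-O and 4.78, 4.22 and 4.12 CPM in 786-M1A. None of the lines overlapped. CCL2 was 8.70-fold higher in 786-O than in HK2 (log2 fold change 3.12, SE 0.21, edgeR adjusted p = 4.70e-12) and 15.4-fold higher in 786-M1A (3.95, SE 0.18, adjusted p = 9.44e-15). It rose 1.77-fold from 786-O to 786-M1A (0.83, SE 0.12, edgeR adjusted p = 3.00e-06). CCL2 was the only detected gene of its own cluster of 6 CC chemokines, in which CCL7 had at most 2 counts and CCL11 at most 1, and CCL8, CCL13 and CCL1 were at 0.

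IL6 (NCBI gene 3569, chromosome 7, 22727200 to 22731998, plus strand), the acute-phase cytokine, was lower in both cancer lines than in HK2. It measured 28.6, 34.2 and 37.1 CPM in HK2, 4.14, 5.04 and 4.91 CPM in 786-O and 5.03, 3.78 and 4.09 CPM in 786-M1A. HK2 stood apart and the cancer lines overlapped. IL6 was 7.15-fold lower in 786-O than in HK2 (log2 fold change -2.84, SE 0.11, edgeR adjusted p = 8.60e-13) and 7.81-fold lower in 786-M1A (-2.97, SE 0.11, adjusted p = 6.59e-13). Between 786-M1A and 786-O the log2 fold change was -0.13 (SE 0.14, edgeR adjusted p = 0.483), which was not called. STEAP1B, which runs antisense to IL6 and whose span reaches into an exon of it, had 174, 252 and 271 counts in HK2 and 2 to 6 in the cancer libraries. The antisense RNA IL6-AS1 overlaps IL6 as well and 6.68% of the 75-base stretches of IL6 occur in it. Their part in the IL6 difference was not tested.

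LIF (NCBI gene 3976, chromosome 22, 30240453 to 30246759, minus strand), which maintains stem cells and signals through LIFR and IL6ST, hardly varied. It measured 97.5, 91.0 and 93.4 CPM in HK2, 83.0, 87.3 and 82.8 CPM in 786-O and 100, 102 and 97.6 CPM in 786-M1A. The lines did not overlap, although the highest HK2 and the lowest 786-M1A library were almost equal. LIF was 1.11-fold lower in 786-O than in HK2 (log2 fold change -0.16, SE 0.04, edgeR adjusted p = 0.00136) and 1.18-fold higher in 786-M1A than in 786-O (0.24, SE 0.04, adjusted p = 2.90e-05). The difference of 786-M1A from HK2 missed the threshold (0.09, SE 0.04, edgeR adjusted p = 0.0517). Over the other settings this log2 fold change was between 0.04 and 0.12 and the adjusted p between 0.00741 and 0.374, and it was called without HK2 replicate 1 (adjusted p = 0.0229) or without 786-M1A replicate 3 (adjusted p = 0.0433).

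**Figure D3:**
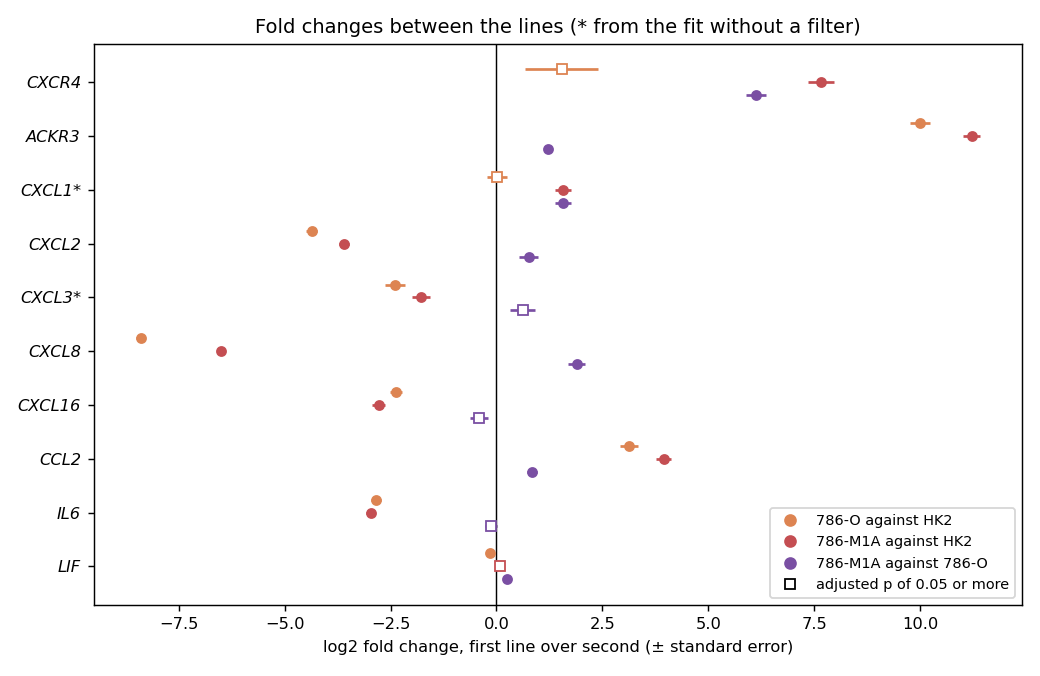
Log2 fold change of each gene in the 3 comparisons, with the standard error as a bar. Filled circles had an adjusted p under 0.05 and open squares did not, and an asterisk marks the genes taken from the fit without a filter. CXCR4 is near 6.12 between the cancer lines, ACKR3 and CCL2 lie to the right against HK2, and CXCL8, CXCL2, CXCL3, CXCL16 and IL6 lie to the left.

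Of the 10 genes, 8 could be counted against the whole transcriptome. HK2 is the reference of the first and second comparison, and 786-O and 786-M1A each enter a pair of comparisons, so that the comparisons are not independent. In 786-O against HK2, 2 of the 8 were called higher and 5 lower, where 41.6% and 42.6% of all genes tested were, and 6 of the 8 differed at least 2-fold, where 22.3% of all genes did. In 786-M1A against HK2, 3 were called higher and 4 lower, beside 41.6% and 43.3% of all genes, and 7 differed at least 2-fold, beside 25.4%. In 786-M1A against 786-O, 6 were called higher and 0 lower, beside 27.9% and 28.0%, and 3 differed at least 2-fold, beside 6.59%. The libraries did not overlap for 7, 8 and 6 of the 8 in these comparisons, where 85.4%, 85.0% and 61.6% of all genes did not overlap. The calls against HK2 and the numbers without overlap are thus near the share of all genes. CXCR4, ACKR3, CXCL2, CXCL8, CXCL16 and CCL2 had a mean under 50 counts in at least 1 line and passed the filter through the lines in which they are high, so these counts describe the genes that passed and support nothing further.

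Per kb of exon, the order of the genes changed from line to line. The length used is the union of the exons of all annotated transcripts of a gene, 4321 bases for IL6 and 2219 for CXCL3. It can exceed the length of the transcript expressed, so that the ranks of genes within a line depend on it. Which transcripts were expressed was not tested. In HK2, CXCL8 led with 100 CPM per kb, followed by LIF with 24.3, then IL6 with 7.71 and CXCL2 with 7.33, which overlapped, and CXCL16 with 1.96. CXCL3 (0.858), CXCL1 (0.547) and CCL2 (0.143) followed, each apart from its neighbours, and CXCR4 and ACKR3 were last and overlapped. In 786-O, LIF led with 21.8 CPM per kb, followed by ACKR3 with 5.76, by CCL2 (1.27) and IL6 (1.09), which overlapped, and by CXCL1 with 0.545. CXCL16 (0.378), CXCL2 (0.358) and CXCL8 (0.291) overlapped with their neighbours, and CXCL3 (0.158) and CXCR4 (0.0287) were lowest. In 786-M1A the order was LIF (25.8), ACKR3 (13.4), CCL2 (2.26) and CXCR4 (2.00), which overlapped, CXCL1 (1.62), CXCL8 (1.10) and IL6 (0.995), which overlapped, CXCL2 (0.604), and CXCL16 (0.282) and CXCL3 (0.244), which overlapped. CXCL8 thus moved from the first place in HK2 to the eighth in 786-O and the sixth in 786-M1A.

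**Figure D4:**
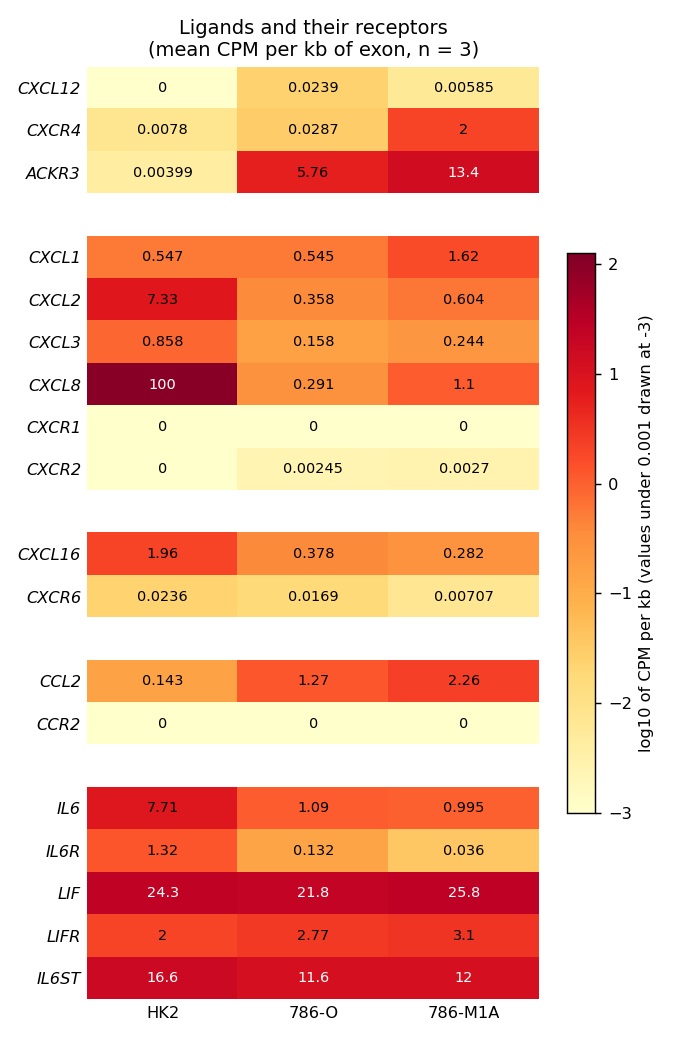
Mean level in CPM per kb of exon of ligands and their receptors in the 3 lines (n = 3), with the colour on a log10 scale. Chemokine ligands are detected while CXCR1 and CCR2 are at 0. CXCL12 is at most 0.0239 CPM per kb, its level for 786-O. CXCR4 is clearly detected only for 786-M1A (2.00), with 0.0287 for 786-O, near the CXCL12 level there, and 0.0078 for HK2. ACKR3 is clearly detected only for the cancer lines (5.76 for 786-O, 13.4 for 786-M1A), with 0.00399 for HK2. The receptors of IL6 and LIF are detected in every line, with IL6R falling from 1.32 in HK2 to 0.036 in 786-M1A.

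The receptors of IL6 and LIF were detected in all 3 lines. IL6R, the binding subunit for IL6, was at 9.23 CPM in HK2, against 0.922 in 786-O and 0.251 in 786-M1A (log2 fold change against HK2 -3.31, edgeR adjusted p = 5.30e-16, and -5.19, adjusted p = 2.70e-17). It was lower in 786-M1A than in 786-O as well (-1.88, edgeR adjusted p = 7.77e-06). IL6ST, the shared signalling subunit, was lower by a small amount in both cancer lines (-0.52, edgeR adjusted p = 8.43e-10, and -0.47, adjusted p = 4.17e-09), while LIFR was higher (0.47, adjusted p = 1.03e-07, and 0.63, adjusted p = 7.55e-10). Of the 14 tested genes of IL-6 family receptors and signalling, 4 were called higher and 10 lower in 786-O against HK2, 3 and 10 in 786-M1A against HK2, and 3 and 7 in 786-M1A against 786-O. Of all genes tested, 41.6% and 42.6%, 41.6% and 43.3%, and 27.9% and 28.0% were called higher and lower in these comparisons. Their median log2 fold changes were -0.41, -0.43 and -0.11, where those of all genes tested were -0.01, -0.02 and 0.00. IL31RA fell by 8.17 on the log2 scale in 786-O against HK2 and IL27RA fell by 5.69. SOCS3, a feedback inhibitor of this pathway, went from 31.1 CPM in HK2 to 16.9 in 786-O and 13.8 in 786-M1A.

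Other ligands of the IL-6 family were examined as a list. Of its 9 genes 4 were tested, and 1 was called higher and 3 lower in each cancer line against HK2, where 41.6% of all genes were higher and 42.6% (786-O) or 43.3% (786-M1A) lower. IL11 was at 40.3 CPM in HK2, against 13.7 in 786-O and 3.90 in 786-M1A, and EBI3, a subunit of IL-27, at 13.5, 2.09 and 0.373 CPM. CLCF1 went the other way, from 15.1 to 21.2 and 28.0 CPM.

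Among other chemokines few were expressed, and no common direction was seen. CX3CL1, also called fractalkine, was at 13.1 CPM in HK2, against 8.37 in 786-O and 2.36 in 786-M1A, and was lower in 786-M1A than in 786-O (log2 fold change -1.82, edgeR adjusted p = 3.44e-12). Together with CXCL5 it was the only gene that passed the filter among 13 other CXC and CX3C chemokines. CCL5, a T cell and monocyte chemokine, was at 0 in HK2, at 4.95 CPM in 786-O and at 0.427 CPM in 786-M1A. In contrast to CCL2, it was thus lower in the metastatic line than in 786-O (-3.53, edgeR adjusted p = 5.59e-12). Of 25 other CC and XC chemokines, CCL5 and CCL28 passed the filter and 13 were at 0 in every library.

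The components and inputs of the NF-kB pathway, which is known to act on several of these genes, were examined as 2 lists. Of 19 genes for NF-kB subunits and regulators, all of which were tested, 8 were called higher and 11 lower in 786-O against HK2, and 9 higher and 6 lower in 786-M1A against HK2, beside 41.6% higher and 42.6% or 43.3% lower among all genes. In 786-M1A against 786-O, 15 were called higher and 3 lower, where 27.9% and 28.0% of all genes were, and the median log2 fold change was 0.30, where that of all genes tested was 0.00. BIRC3, an inhibitor of apoptosis, was at 13.7 CPM in HK2, against 33.5 in 786-O and 63.6 in 786-M1A. RELB, a subunit of the noncanonical pathway, was at 20.3, 15.4 and 29.1 CPM, and NFKBIA, which encodes the inhibitor IkB alpha, at 48.7, 25.3 and 43.4 CPM. MAP3K14, a kinase of the noncanonical pathway, was among the 3 that were lower (log2 fold change -1.01, edgeR adjusted p = 5.43e-13), together with NFKBIZ (-0.52, adjusted p = 1.30e-08), which is known to promote IL6 transcription, and REL (-0.40, adjusted p = 2.93e-04). Among 16 inputs of the IL-1 and TNF type, 6 were tested, of which 2 were called higher and 2 lower in 786-O against HK2, 2 and 4 in 786-M1A against HK2, and 2 and 2 in 786-M1A against 786-O. The same shares of all genes, 41.6% higher and 42.6% or 43.3% lower against HK2 and 27.9% and 28.0% between the cancer lines, stand beside these counts. IL18 fell from 24.1 CPM in HK2 to 1.28 in 786-O and 2.65 in 786-M1A, and TNF had no more than 29 counts and IL1B no more than 5 in any library.

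**Figure D5:**
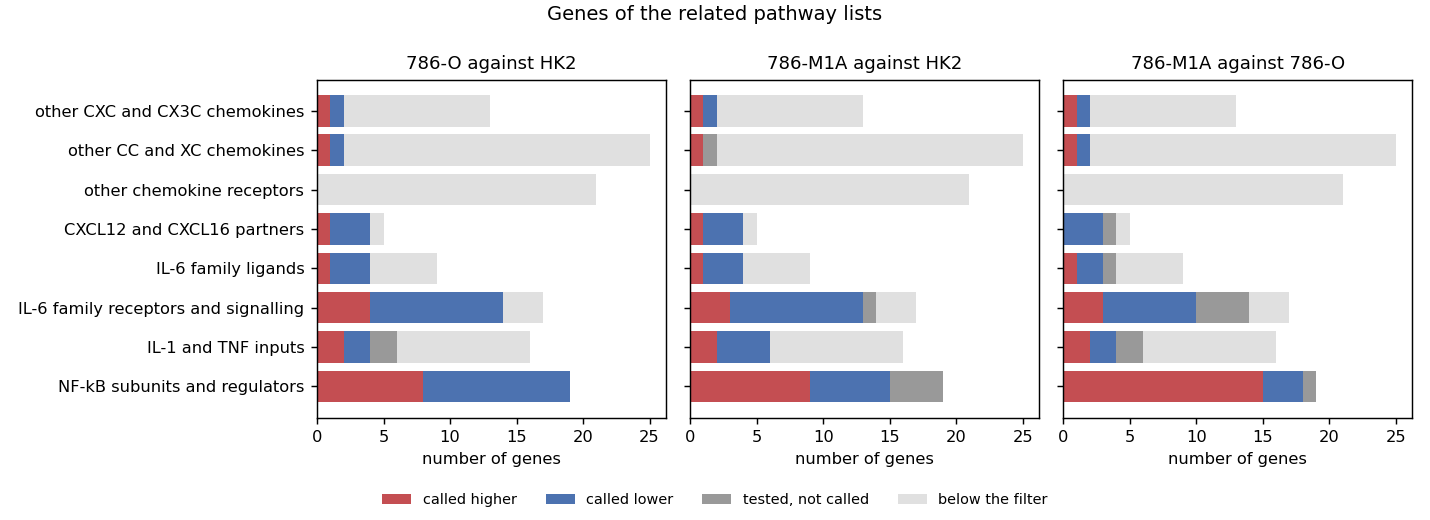
Number of genes called higher, called lower, tested without a call and below the filter in 8 lists of related genes, for each comparison. The 21 other chemokine receptors were all below the filter, and the NF-kB list has 15 genes higher and 3 lower in 786-M1A against 786-O.

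Genes whose profile over the 9 libraries was most like that of each tested gene were found by the root mean square (RMS) difference of centred log2 CPM, where a smaller value is a closer profile. For CXCR4 they were PHETA2 (0.67) and PRUNE2 (0.68), and for ACKR3 they were MYEOV (0.287) and NCAM1 (0.312), a cell adhesion molecule. CXCL8 was nearest to MDK (0.27), the growth factor midkine, and CAVIN2 (0.39). For CXCL2 they were NES (0.141), which encodes the filament protein nestin, and CRABP2 (0.145). CXCL16 was nearest to IL7R (0.182) and JMY (0.191), CCL2 to POU5F1 (0.159) and RTL3 (0.201), and IL6 to FBXO32 (0.161) and WNT5B (0.161). For LIF they were MCM4 (0.0292), a replication helicase subunit, and TGFBR2 (0.0433). The CXCR4 pair was the least close, and low counts in HK2 and 786-O enter that value.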

How the data were processed

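RNA of HK2, 786-O and 786-M1A cells was sequenced by the authors from TruSeq Stranded mRNA libraries on a NextSeq and counted on genes with featureCounts of Rsubread on hg38 (GRCh38). They deposited raw counts per NCBI gene identifier, without normalization. The version of the annotation and the strand setting are not given in the sources used here. Gene symbols came from RefSeq and matched 27745 of 28395 identifiers. 1 of 172 listed genes was not analysed here. Overlaps, shared 75-base stretches and exon lengths came from GENCODE release 44. The exon length of a gene is the union of the exons of all its transcripts.

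Groups came from the labels of the samples. Counts were fitted with the robust quasi-likelihood model of edgeR 4.0.16 (R 4.3.3) on all 9 libraries with TMM factors (0.967 to 1.03), for genes whose mean reached 50 counts, and the 3 contrasts were adjusted by Benjamini-Hochberg over 12695 genes. The biological coefficient of variation was 3.93%. Intervals of count ratios and the floor of 3 counts cover counting error only. All 10 genes were described. Of the related lists, those named were called with at least a 2-fold difference, at most 4 per list and largest first, and others were named after their values were seen. For each tested gene the 2 nearest profiles were named. The genes and lists were chosen with earlier results of these data known. The fit was tested on simulated counts.

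The alternatives were RLE and upper-quartile scaling, DESeq2 1.42.0, limma 3.58.1 on median-centred log2 counts (with 0 set to 0.5), no filter, at least 10 counts in every library, the 2 lines alone, a replicate block and leaving out each library. Repeating them without a filter for CXCL1 and CXCL3 was chosen after seeing the data.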

Additional observations from a re-analysis of the deposited data

How the results depend on the processing

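The number of genes called stayed within 1.5 times under every alternative in all 3 comparisons: 6 to 8 in 786-O against HK2, 6 to 10 in 786-M1A against HK2 and 4 to 7 in 786-M1A against 786-O, where the filter of 10 counts in every library leaves out CXCR4, ACKR3 and CCL2 and lets in CXCL1 and CXCL3, which are also added without a filter. Of the single log2 fold changes, 214 kept direction and side of the threshold under other settings and 6 became called, and 173 and 4 did so when a library was left out. No call was lost where the gene was tested. Only CXCL1 in 786-O against HK2 changed sign, from 0.01 to -0.02 with RLE scaling, 0.00 with upper-quartile scaling, -0.01 with DESeq2, -0.03 with at least 10 counts and 0.00 with the replicate block, and between -0.16 and 0.16 when a library was left out. Without a filter the genes with at least a 2-fold difference were 5410, 5895 and 1592 instead of 2829, 3220 and 836 in the 3 comparisons, since 21241 genes were tested.

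The correlations of same-numbered libraries were between -0.167 and 0.0376 against HK2 and between 0.074 and 0.215 between the cancer lines. Whether the replicate numbers pair the libraries was not tested. With the replicate block 10688, 10797 and 7157 genes were called, against 10693, 10784 and 7103, and 7, 7 and 6 of the genes described. Depth limits CXCR4 and ACKR3 in HK2 and CXCR4 in 786-O, where libraries had at most 5 counts.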

Other observations

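Some chemokines and related genes below the filter on low counts had counts that varied between the lines. CCL20, which attracts lymphocytes and dendritic cells, had 21 to 52 counts in HK2, 0 to 1 in 786-O and 2 to 4 in 786-M1A. The interferon-inducible chemokines CXCL10 and CXCL11 had 6 to 12 and 7 to 10 counts in 786-O, and no more than 1 and 2 in any library of the other lines. CXCR3, their receptor, had 10 counts in every 786-O library, 1 to 5 in HK2 and 0 to 3 in 786-M1A. The cytokine TNF had 10 to 29 counts in HK2, 2 to 4 in 786-O and 14 to 27 in 786-M1A, so that HK2 and 786-M1A overlapped. These values were chosen after they had been seen and were not tested.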
